A study of Mus musculus with 12 samples.

Results

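The hypoxia and glycolysis genes are 35 genes that low oxygen or a high rate of sugar use is known to raise: glucose transporters, enzymes of glycolysis, oxygen sensors and other targets of the hypoxia-inducible factor (HIF). They are listed by name, no measured value enters the rule, and earlier results of these data were known when they were chosen. They stand for 35 of 32288 gene rows. All 35 were among the 18804 genes with at least 10 counts over all libraries, which were the genes tested.

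RNA-seq was performed on 12 tumors, each grown from P815 mastocytoma cells, a mast cell tumor line, under the back skin of a DBA/2 mouse aged 8 to 10 weeks. The P815-IFNG cells (labelled P815-IFNγ) carried a light-responsive transactivator (GAVPO, constitutively made), a light-driven cassette of Ifng, Cxcl10 and a secreted luciferase, and a reporter of mRuby and firefly luciferase. The P815-M control cells carried only that reporter, and both lines were 1 selected clone each, so that line and clone cannot be told apart. From 7 days after implantation, the tumor area of mice of both lines was lit by a blue laser that tracked it, for 12 h per day, or was not lit (dark), with 3 mice per group and 1 tumor per mouse, and tumors were taken after 6 days by the labels and 7 days by the methods. The methods give single housing in the light cages for the light groups only, so that housing and light cannot be told apart. The tumors were sequenced whole, so that fewer cells of a type and less RNA per cell cannot be told apart.

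Cells sense oxygen through prolyl hydroxylases, which mark the HIF alpha subunits for removal as long as oxygen is present. When oxygen is low, the subunit stays, pairs with its partner and binds short DNA motifs beside its targets. These targets shift the cell from respiration to glycolysis, export lactate and protons, clear mitochondria and call in vessels, and growing tumors that outrun their vessels commonly express them.

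The promoters of most of these genes hold the core of that motif. RefSeq (GRCm38.p6) gave a window from 250 bases before to 50 bases after a start for 32 of the 35 genes; Slc2a3, Bnip3l and Ndrg1 had none. The letters ACGTG or GCGTG, searched on both strands, were found in at least 1 window of 30 of these 32 genes (93.75%), against 46.73% of all 27025 genes with a window. Members had more windows per gene, and counted per window the shares were 78.72% of 47 member windows and 43.77% of all 32851. A letter match is a description and says nothing of binding. Below are 150 bases of the promoters of 6 genes that were lower in every illuminated P815-M tumor than in every dark one, and of P4ha1, which was not. Each runs 5′ to 3′ on the strand of its gene, from 190 to 41 bases before the start, and capitals mark the cores, which read CACGT or CACGC where they lie on the other strand.
Slc2a1, chr4:119108555-119108704, plus strand: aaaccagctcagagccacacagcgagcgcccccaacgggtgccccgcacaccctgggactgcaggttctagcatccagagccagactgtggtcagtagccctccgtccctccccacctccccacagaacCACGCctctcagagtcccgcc
Hk2, chr6:82774495-82774644, minus strand: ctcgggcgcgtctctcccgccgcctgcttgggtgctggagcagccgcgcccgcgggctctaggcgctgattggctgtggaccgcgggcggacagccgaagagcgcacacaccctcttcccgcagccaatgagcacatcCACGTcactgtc
Pgk1, chrX:106186910-106187059, plus strand: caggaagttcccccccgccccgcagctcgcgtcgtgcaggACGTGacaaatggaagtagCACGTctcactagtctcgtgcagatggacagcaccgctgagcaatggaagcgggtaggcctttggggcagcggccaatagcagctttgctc
Pdk1, chr2:71873034-71873183, plus strand: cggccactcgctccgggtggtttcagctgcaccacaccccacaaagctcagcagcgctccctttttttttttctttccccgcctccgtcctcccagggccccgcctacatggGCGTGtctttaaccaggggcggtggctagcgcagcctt
Bnip3, chr7:138909547-138909696, minus strand: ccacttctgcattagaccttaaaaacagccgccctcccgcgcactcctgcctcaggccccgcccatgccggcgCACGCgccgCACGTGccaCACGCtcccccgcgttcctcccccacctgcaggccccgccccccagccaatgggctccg
Ankrd37, chr8:45999891-46000040, minus strand: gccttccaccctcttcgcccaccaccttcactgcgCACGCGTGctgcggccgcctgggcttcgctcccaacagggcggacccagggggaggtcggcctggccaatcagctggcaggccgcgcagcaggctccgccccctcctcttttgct
P4ha1, chr10:59323106-59323255, plus strand: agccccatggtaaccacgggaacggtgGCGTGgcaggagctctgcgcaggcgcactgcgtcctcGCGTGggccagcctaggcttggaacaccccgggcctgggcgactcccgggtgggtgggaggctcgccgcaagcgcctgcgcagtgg

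Bnip3 held 4 cores in its stretch, in which CACGTG counts once on each strand, and Slc2a1, Hk2 and Pdk1 held 1 each. The stretch of P4ha1 held 2, as many as those of Pgk1 and Ankrd37.

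By counts assigned to genes, not by reads sequenced, the libraries fell into 2 classes, called depth classes here. In 10 of them, called shallow here, the total was between 2211234 and 2946792 counts, and the third libraries of the P815-IFNG groups held 41473500 (light) and 42338096 (dark). The 2 deep libraries also differed in the counts of genes on opposite strands. The mitochondrial gene mt-Nd6, encoded opposite to the other mitochondrial proteins, held 3.56% and 3.85% of the mitochondrial coding counts in the deep pair and 29.0% to 47.9% in the 10 others. The library kit was stranded and the counting program was run at its default setting for strand. Levels are given in counts per 1000000 (CPM, scaled by TMM, which sets each library's total to be comparable), and the deep pair is always given apart. For 26 of the 35 genes the mean level was higher in the deep pair than in the 10 others, with a median log2 difference of 0.68 over all 35. The share over all genes is not given here, so this is not read as particular to the 35. The difference was over 1 log2 unit upward for 13 genes and downward for 2, Car9 (-2.31) and Ddit4 (-1.39). Bnip3, for example, had 382 and 211 CPM in the deep pair and 27.3 to 84.8 CPM elsewhere. Of the mast cell markers, Cpa3, Cma1, Gata2, Kit and Srgn were present in every library and carried the sum over 10 tested markers, which was 1956 to 2814 CPM in the 10 libraries and 12060 and 9045 CPM in the deep pair. Others were near absent: Fcer1a and Ms4a2, chains of the IgE receptor, had no count in 10 and 7 of the 12 libraries and the tryptase Tpsab1 none in 6, while Hdc, Tpsb2 and Mcpt4 reached at most 6.03, 5.27 and 18.9 CPM in the 10 shallow libraries.

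Per kilobase of exon, the levels of the 10 libraries spanned the range from Ldha (494 CPM per kb), Pkm (471), Aldoa (367) and Pgk1 (264), which are enzymes of glycolysis and its lactate step, down to Aldoc (0.842), a brain form of aldolase. Of the genes outside glycolysis, Ddit4 (86.8) and Ndrg1 (69.7) were the most abundant, and Hif1a itself stood at 10.2 CPM per kb. In the deep pair Ldha (806) and Aldoa (739) led. The order outside glycolysis was another one there, with Slc2a3 (171), Ndrg1 (149) and Bnip3 (131) above Ddit4 (33.2) and Hif1a (22.4). Of the 35 genes, 10 share at least 100 exon bases with a counted gene on the other strand, and their values are uncertain for that reason (Slc2a1, Hk1, Pfkp, Bnip3, Car9, Ankrd37, Ndrg1, Higd1a, Hif1a and Mxi1). Gpi1 overlaps a gene that has no row. The mt-Nd6 shares concern whole libraries, so the levels of the other genes in the 10 shallow libraries are uncertain as well. All P815-M libraries are among these.

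The first question was whether light changed these genes in tumors whose P815 cells lack the light-driven cytokine cassette. In P815-M tumors, none of whose libraries was deep, 22 of the 35 genes (62.9%) were lower in all 3 light libraries than in all 3 dark libraries, and none was higher in all 3. Of all genes tested, 8.06% were lower and 10.1% higher in that way, and among genes with a mean of at least 10 CPM 12.0% were lower, against 22 of 33 members. Groups of 3 against 3 cannot give an exact permutation p below 0.1, which is the value of each of these 22 genes (two-sided).

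In the edgeR quasi-likelihood fit of all 12 libraries, no gene of the 35 and 0.0% of all genes were called in P815-M, where a call needs a log2 fold change of 1 or more in size with an adjusted p up to 0.05. The members had a median log2 fold change (light minus dark) of -0.44, against 0.01 for all genes, and 29 of 35 were lower. At an unadjusted p under 0.05 there were 2, Hk2 and Slc2a1. Without the deep pair, in the same edgeR fit of 10 libraries, Slc2a1 was called and Hk2 and Pdk1 also passed the adjusted p, so that 3 of 35 genes fell. In that fit 0.927% of all genes were called in either direction and 0.165% passed the adjusted p as lower in light. The median stayed at -0.45, 30 of 35 genes were lower, and 21 had an unadjusted p under 0.05 as lower in light, against 5.74% of all genes. Pfkfb4 had such a p as higher in light. Both fits compare the same 6 P815-M libraries and differ in the spread estimated over all samples. With depth class as a term in the edgeR fit of 12 libraries, Slc2a1 and Ndrg1 were called and Slc2a3, Hk2 and Pdk1 also passed the adjusted p. The calls needed all 6 tumors: in the 10-library fit without any 1 of the 6 P815-M libraries, no member passed the adjusted p, while the median stayed between -0.55 and -0.38. Slc2a1 also lost its call without either P815-IFNG light library.

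**Figure D1:**
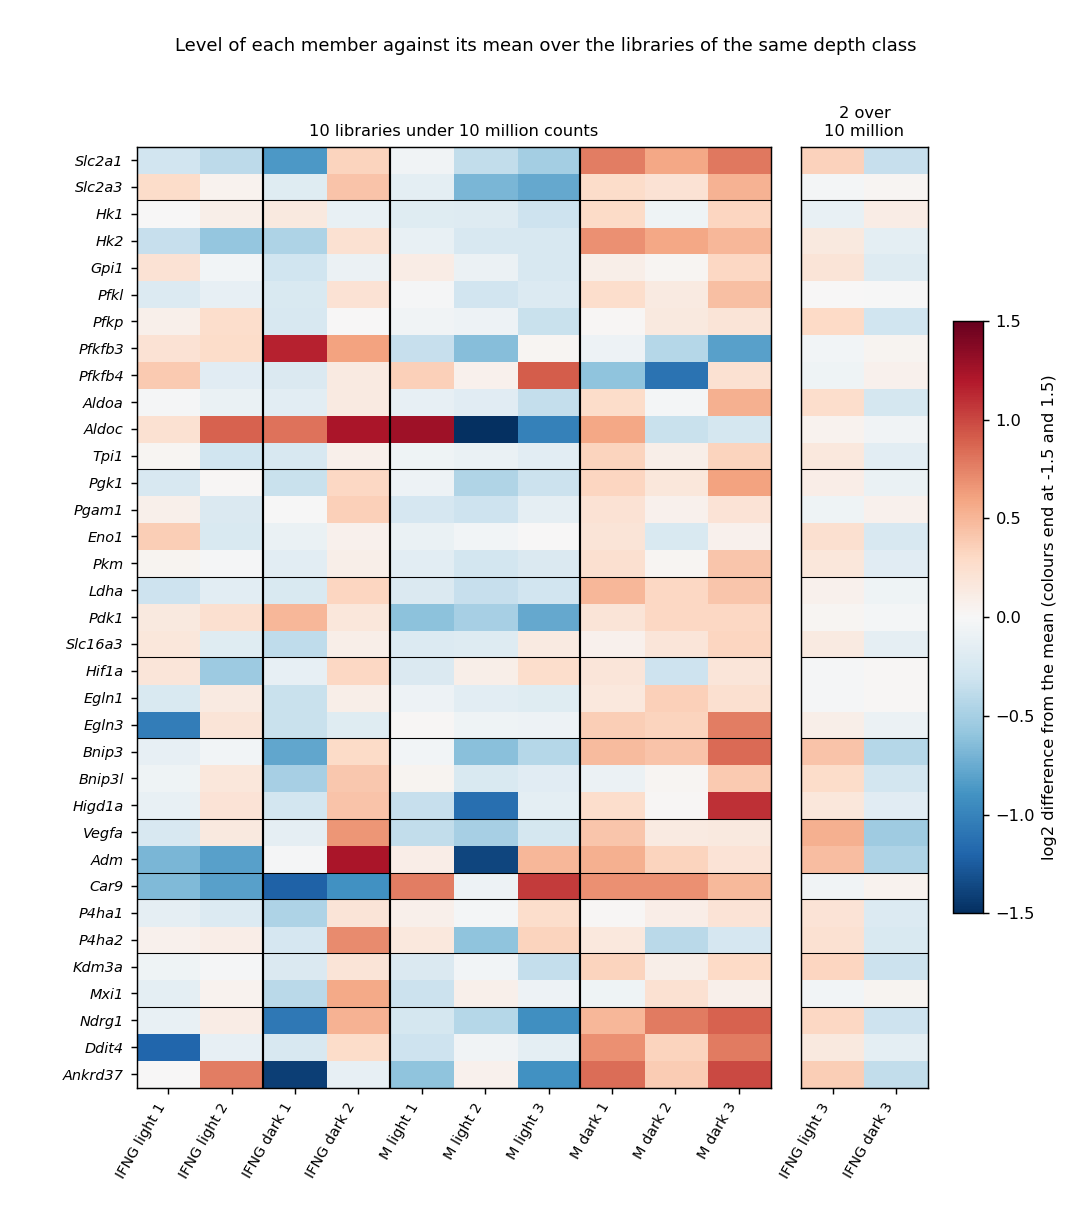
Log2 level of each gene (rows, ordered by role, with lines between roles) against its mean, in the 10 shallow libraries (left, mean over those 10) and in the deep pair (right, mean over those 2). Most rows are blue in the 3 light and red in the 3 dark P815-M libraries, while the P815-IFNG dark libraries 1 and 2 differ from each other.

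Glucose enters these cells through transporters of the Slc2a family. Slc2a1, the basal glucose transporter GLUT1 (chr4:119108711-119137983 on GRCm38 in GENCODE M21, plus strand), had 159, 127 and 116 CPM in the P815-M light tumors and 282, 248 and 285 CPM in the dark ones. Every light tumor lay below every dark one, at a mean of 134 ± 22.4 CPM against 272 ± 20.6 (SD, n = 3). Its log2 fold change was -1.03 (SE 0.24, edgeR adjusted p = 0.04995) in the 10 libraries and -1.02 (SE 0.45, edgeR adjusted p = 1) in all 12. Slc2a3, the high-affinity transporter GLUT3, had 345, 238 and 224 CPM in light and 465, 446 and 550 CPM in the dark. The groups did not overlap either, and the log2 fold change of -0.87 (SE 0.21) missed the threshold in the 10 libraries (edgeR adjusted p = 0.0537).

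**Figure D2:**
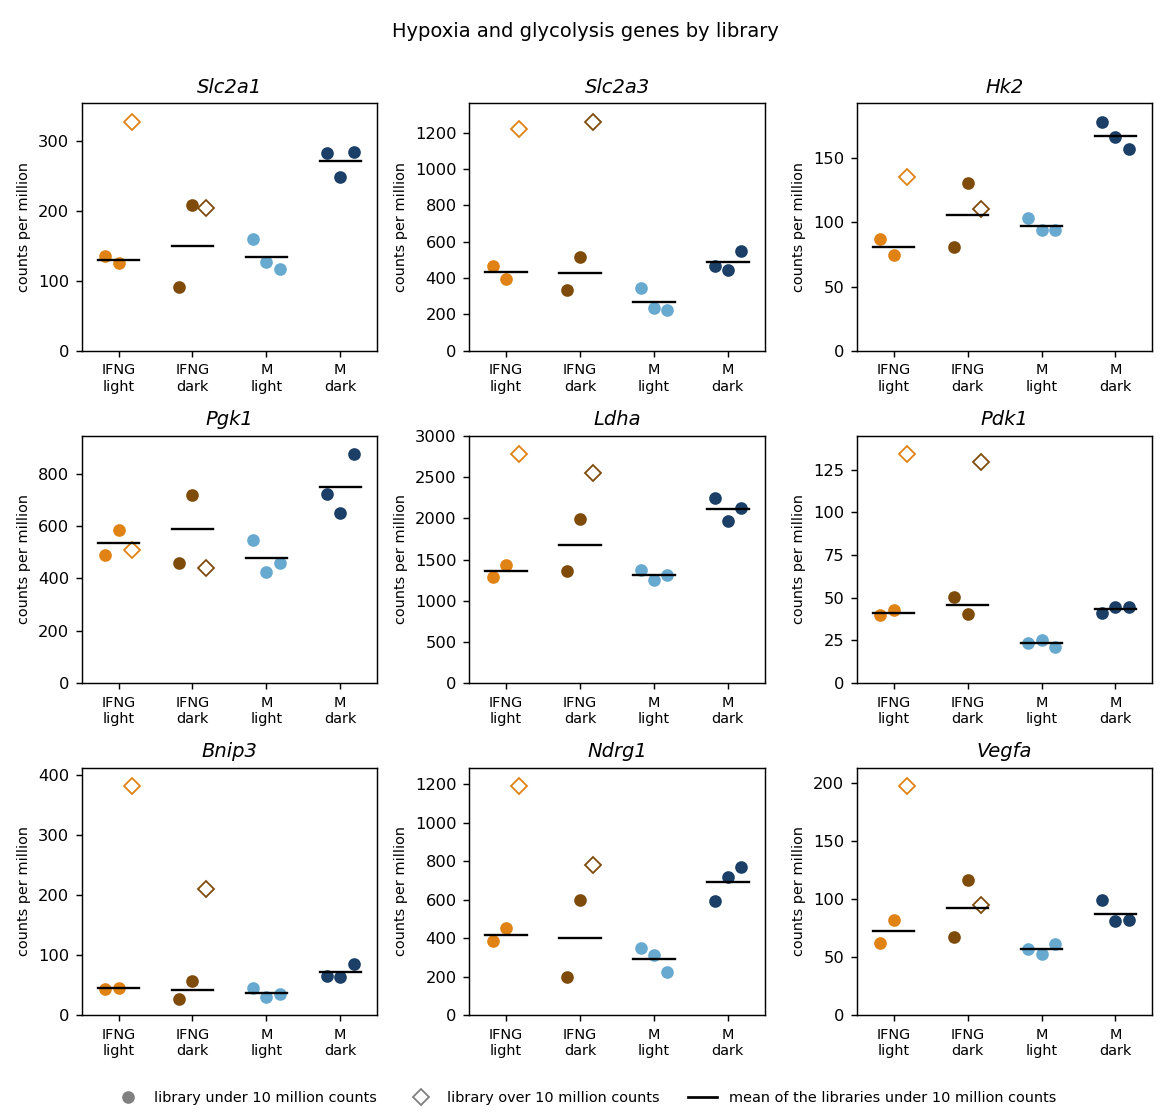
Level in CPM (counts per 1000000) of 9 genes in each tumor, for both lines in light and dark. Filled circles are the 10 shallow libraries, open diamonds the deep pair, and lines the mean of the filled circles. In P815-M all 3 light tumors lie below all 3 dark tumors in each of the 9 panels, and in P815-IFNG the groups overlap in each.

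In the first steps of glycolysis, 6 of 10 genes were lower in all light tumors of P815-M: both hexokinases Hk1 and Hk2, which trap glucose in the cell, the phosphofructokinases Pfkl and Pfkp, which set the committed step, and Aldoa and Tpi1, which split the sugar and interconvert its products. Hk2, the hexokinase most responsive to HIF (chr6:82725025-82774454, minus strand), had 103, 93.9 and 93.9 CPM in light and 178, 166 and 157 CPM in the dark. The groups were separated by more than their spread, with a log2 fold change of -0.80 (SE 0.18, edgeR adjusted p = 0.0463, 10 libraries). Hk1, the general form, differed less, with 238 to 312 CPM in the dark and 200 to 220 CPM in light, a log2 fold change of -0.44 (SE 0.16) that did not pass. Gpi1, Pfkfb3 and Aldoc overlapped between light and dark. Pfkfb4, a bifunctional enzyme that sets the activator of phosphofructokinase, had the highest log2 fold change of the 10 (0.86, SE 0.35), at 17.7, 14.4 and 25.9 CPM in light and 8.98, 6.25 and 16.1 in the dark, with overlap and an edgeR adjusted p of 0.28, and that of Pfkfb3 was 0.10 (SE 0.24).

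All 4 genes of the later steps were lower in light in the 10-library fit, and 3 of them did not overlap. Pgk1, which makes the first ATP of the pathway, had 548, 423 and 460 CPM in light and 723, 650 and 877 CPM in the dark. Its log2 fold change was -0.67 (SE 0.20, edgeR adjusted p = 0.12). Pkm, pyruvate kinase, and Pgam1, the mutase before enolase, had log2 fold changes of -0.47 (SE 0.17) and -0.41 (SE 0.17). Eno1, enolase, overlapped between the groups, at a log2 fold change of -0.08 (SE 0.18).

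At the branch that sends pyruvate to lactate, Pdk1, the kinase that shuts the entry of pyruvate into respiration (chr2:71873224-71903858, plus strand), had 23.4, 25.4 and 21.02 CPM in the P815-M light tumors and 40.98, 44.3 and 44.4 CPM in the dark. It had the lowest edgeR adjusted p of the 35 genes in the 10 libraries (0.0272), with a log2 fold change of -0.91 (SE 0.18). Ldha, which turns pyruvate into lactate, had 1377, 1257 and 1306 CPM in light and 2246, 1969 and 2128 CPM in the dark. These groups were clearly apart, and its log2 fold change of -0.70 (SE 0.17) had an edgeR adjusted p of 0.0638. Slc16a3, the lactate exporter MCT4, overlapped between the groups, at -0.29 (SE 0.18).

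Of the oxygen sensors, Egln1 and Egln3, the prolyl hydroxylases PHD2 and PHD3, were lower in all P815-M light tumors, with log2 fold changes of -0.41 (SE 0.17) and -0.56 (SE 0.23), and neither passed the adjusted p. Hif1a, the oxygen-regulated subunit, is controlled mainly at its protein, which was not measured. Its RNA had 50.9, 63.2 and 71.1 CPM in light and 67.1, 47.9 and 67.1 CPM in the dark, with a log2 fold change of 0.01 (SE 0.23). The groups overlapped fully.

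Among the mitochondrial genes, Bnip3, a mitophagy receptor, had 45.7, 30.2 and 34.9 CPM in light and 65.2, 63.0 and 84.8 CPM in the dark. The groups did not overlap, and its log2 fold change was -0.96 (SE 0.25, edgeR adjusted p = 0.0816, 10 libraries). Higd1a, which protects respiratory complexes, had a log2 fold change of -1.05 (SE 0.36) on counts of 13 to 28 in light. Bnip3l, the related receptor NIX, overlapped, at -0.26 (SE 0.23).

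The 3 genes of stress and growth restraint were all lower without overlap. Ndrg1, a stress gene and well-known HIF target, had 347, 312 and 221 CPM in light and 592, 720 and 769 CPM in the dark, with the lowest log2 fold change of the 35 (-1.26, SE 0.30, edgeR adjusted p = 0.0537). Ankrd37, a small ankyrin protein, had 8.31, 13.4 and 6.71 CPM in light and 23.0, 16.7 and 25.5 CPM in the dark, a log2 fold change of -1.22 (SE 0.37). Ddit4, the mTORC1 inhibitor REDD1, had 115, 137 and 129 CPM against 230, 180 and 245 CPM, a log2 fold change of -0.80 (SE 0.23). These 3 are the role with the lowest median (-1.22), on 3 genes.

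Vegfa, the vessel growth factor, had 57.1, 52.2 and 61.3 CPM in light and 98.8, 80.7 and 81.5 CPM in the dark, again without overlap, at -0.63 (SE 0.21, edgeR adjusted p = 0.171). Kdm3a, a histone demethylase, was the other gene lower in all light tumors, at -0.46 (SE 0.18). Car9, the membrane carbonic anhydrase and one of the most specific markers of hypoxia, overlapped fully in P815-M, at 16.6, 9.10 and 20.1 CPM in light and 15.6, 15.6 and 13.6 CPM in the dark. The collagen prolyl hydroxylases P4ha1 and P4ha2 overlapped as well. The vasodilator peptide Adm (5.71, 1.92 and 7.603 CPM in light, 7.81, 6.77 and 6.17 CPM in the dark) and the MYC antagonist Mxi1 (30.6, 40.2 and 36.2 CPM, 36.7, 44.8 and 40.3 CPM) overlapped in part, with lower means in light.

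The direction was the same in members with and without an opposite-strand neighbour. Of the 24 members without one, 15 (62.5%) were lower in all P815-M light tumors, and their log2 fold changes in the 10 libraries had a median of -0.46. Of the 11 members with one, 7 (63.6%) were, with a median of -0.44. A neighbour does not mark the affected genes if whole libraries were counted on the wrong strand, so nothing is concluded from this split. The neighbours themselves were counted highly in the 10 libraries: Gm17035, opposite Ndrg1, had 1122 to 7237 CPM there and 402 and 276 CPM in the deep pair, and Gm45507, opposite Bnip3, had 1045 to 5079 CPM and 206 and 117 CPM. Of the 11 neighbour rows, 5 were lower in all P815-M light tumors, those opposite Slc2a1, Pfkp and Ankrd37 and both opposite Ndrg1, and 1, opposite Hif1a, was higher in all. Of all genes tested, 8.06% were lower and 10.1% higher in that way. None of the 11 neighbour rows passed the edgeR adjusted p, which was at least 0.218.

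Of 46 further hypoxia-induced genes, 16 were lower and 1 higher in all P815-M light tumors, where 8.06% and 10.1% of all genes were. In the edgeR fit of the 10 libraries Ero1l, an oxidase of the endoplasmic reticulum, and Sap30, a corepressor subunit, were called as lower, where 0.927% of all genes were called, each at -1.08 (SE 0.21 and 0.22, adjusted p = 0.0202 and 0.025), and Plin2, a lipid droplet coat, was called as higher, at 1.01 (SE 0.22, adjusted p = 0.0371). The list had a median of -0.35. Of the 26 tested among 30 further glycolytic enzymes and transporters, 7 were lower and 3 higher in all light tumors, at a median of -0.20, and Pgm1, a phosphoglucomutase, passed the edgeR adjusted p of that fit (-0.75, SE 0.16, adjusted p = 0.0338). Of 16 genes of the oxygen sensing machinery and the HIF complex, 5 were lower and 1 higher in all light tumors, at a median of -0.17, and none passed the adjusted p, while 3 had an unadjusted p under 0.05.

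Summed over the 35 genes, the share of nuclear gene counts was 0.843%, 0.796% and 0.839% in the P815-M light tumors and 1.29%, 1.02% and 1.36% in the dark ones. Every light tumor was below every dark one, and the 95% Wilson intervals, which cover counting error only, reached no further than 0.856% in light and 1.005% in the dark. Markers of other cells moved with the same contrast. The sum of 9 macrophage and monocyte markers was 1514 to 1735 CPM in light and 702 to 986 CPM in the dark, with all 9 genes higher in light in the 10-library fit, 5 of them without overlap, and C1qa passing the edgeR adjusted p (1.09, SE 0.23, adjusted p = 0.0355). The sum of the 10 tested mast cell markers was 2043 to 2076 CPM in light and 2211 to 2814 CPM in the dark, with Cpa3 and Kit lower without overlap. The sum of 5 neutrophil markers was 38.4 to 48.3 CPM in light and 58.9 to 60.9 CPM in the dark, which lay in Cxcr2 alone (23.9 to 34.0 CPM in light, 45.7 to 52.3 CPM in the dark, edgeR adjusted p = 0.145). Csf3r, at 10.5 to 13.4 CPM in light and 7.81 to 11.7 CPM in the dark, overlapped. The mt-Nd6 share was 41.5% to 47.9% in light and 29.0% to 36.7% in the dark. The part of these markers in the result was not tested. The mt-Nd6 share was also higher in light in P815-IFNG (40.5% and 43.6% against 34.4% and 32.2% in the 4 shallow libraries). Its part in the result was not tested either. Fibroblast markers summed to 4967 to 5740 CPM in light and 4719 to 5492 CPM in the dark and overlapped, although 3 of 6 were higher in all light tumors and Dcn passed the edgeR adjusted p of the 10 libraries (0.95, SE 0.18, adjusted p = 0.0202). The sums of skeletal muscle, endothelial and T cell markers overlapped between light and dark. Of their single genes, the muscle gene Mb and the endothelial gene Tek were higher in all light tumors. The muscle gene Ckm was lower in all. Of all genes tested, 10.1% were higher and 8.06% lower in that way. The sums of erythroid markers, at 7.41 to 16.1 CPM, and of adipocyte markers, at 0.823 to 26.1 CPM, were low and overlapped too. Of the neutrophil markers, S100a8 had a count in 1 of the 6 P815-M libraries and was at 0 in the other 5.

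**Figure D3:**
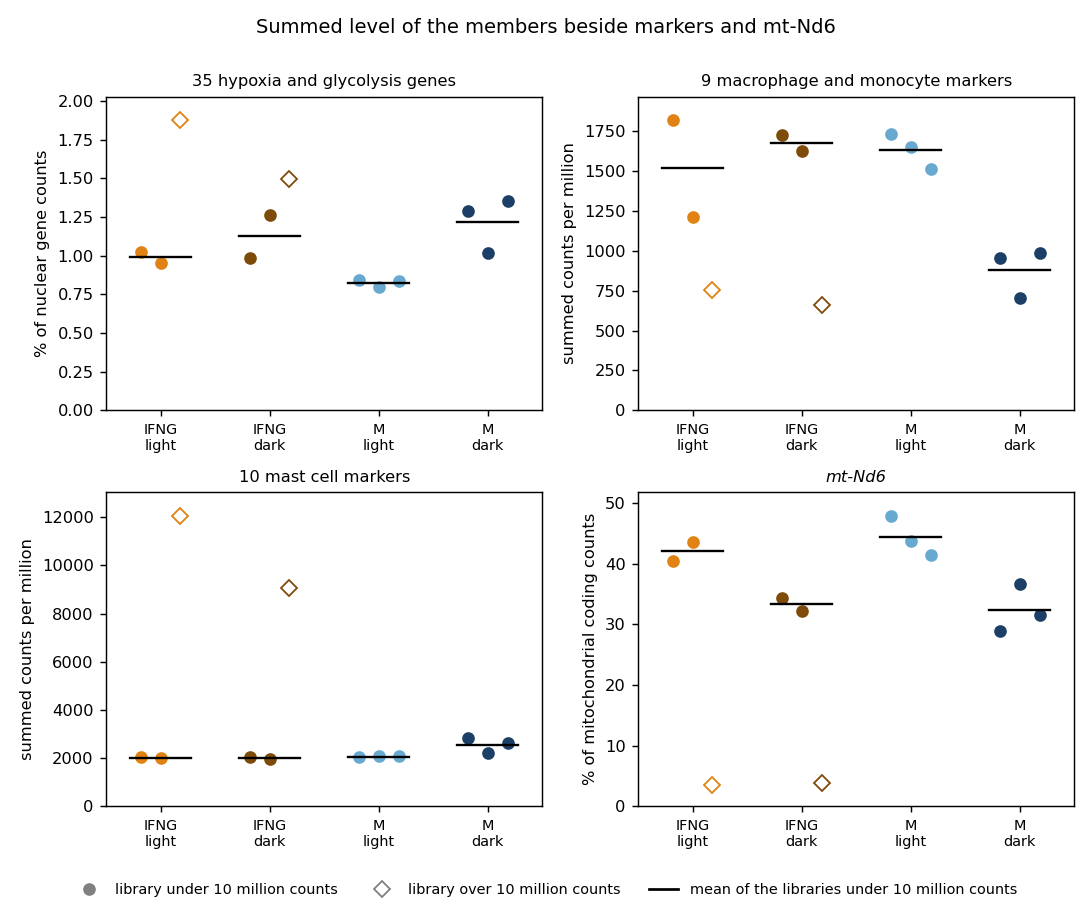
Summed share of the 35 genes in the nuclear counts (top left), summed level of 9 macrophage and monocyte markers (top right) and of 10 mast cell markers (bottom left), and share of mt-Nd6 in the mitochondrial coding counts (bottom right), for each tumor. Symbols and lines are as in the plot of 9 genes by library, and in all 4 panels the P815-M light and dark tumors do not overlap.

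The second question was the effect of light where it also drives Ifng and Cxcl10. In P815-IFNG tumors no gene of the 35 was called in the edgeR fit of 12 libraries, with 0.0% of all genes called and none of the 35 at an unadjusted p under 0.05. Without the deep pair none was called either, against 0.0059% of all genes, and 4 had an unadjusted p under 0.05: Ankrd37 as higher, and Pfkfb3, Adm and Ddit4 as lower in light. The median log2 fold change was 0.08 with the deep pair and -0.07 without it, so that its sign rested on these 2 libraries. Over all 3 against 3 libraries, 2 genes were higher in every light tumor, Pfkp and Gpi1, and none was lower in every one, against 0.994% and 2.75% of all genes.

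The spread within the P815-IFNG dark group was wider than the difference between the groups. The first dark library had 31 of the 35 genes below their mean over the 10 libraries, with a median deviation of -0.24 on the log2 scale, and the second had 30 above it, with a median of 0.23. Ndrg1, for example, had 199 and 600 CPM in these 2 libraries and 386 and 450 CPM in the shallow light ones. Slc2a1 had 90.6 and 208 CPM in the dark and 135 and 125 CPM in light. Both light values lay between both dark values. The summed share was 0.988% and 1.26% in the dark and 1.03% and 0.951% in light. Markers of other cells differed as well: endothelial markers summed to 116 and 146 CPM in the dark and 46.3 and 44.9 CPM in light, and adipocyte markers to 122 and 183 CPM in the dark and 19.3 and 8.78 CPM in light, and the part of these cells was not tested. In the deep pair the endothelial sum was 33.2 CPM in light and 43.7 CPM in the dark, and the adipocyte sum was 88.9 CPM in light and 16.4 CPM in the dark.

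The deep pair held 1 tumor of each group and gives no replicate check. Its light library had 26 of the 35 genes above its dark library, with a median log2 difference of 0.29 and summed shares of 1.88% and 1.495%. Vegfa had 197 CPM in the deep light and 94.6 in the deep dark library, and Bnip3 382 and 211, while Ldha, Pdk1 and Hif1a lay within 0.13 log2 units of each other. In the shallow libraries Vegfa had 62.3 and 81.5 CPM in light and 67.3 and 116 CPM in the dark. Its log2 fold change was thus 0.30 (SE 0.40) with the deep pair and -0.37 (SE 0.25) without it, and the same change of sign was found for Slc2a1 (0.23, SE 0.44, and -0.21, SE 0.29) and Egln3 (0.08, SE 0.51, and -0.06, SE 0.29). Hk2, Ldha, Pgk1 and Hif1a were lower in both fits and Car9 and Bnip3 higher in both, with the lowest edgeR adjusted p at 0.55 for Hk2. Adm, a vasodilator peptide of low level, had 3.22 and 2.93 CPM in the shallow light and 5.28 and 12.7 in the shallow dark libraries, and 12.7 and 6.54 in the deep pair, so that the 2 depth classes went opposite ways.

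**Figure D4:**
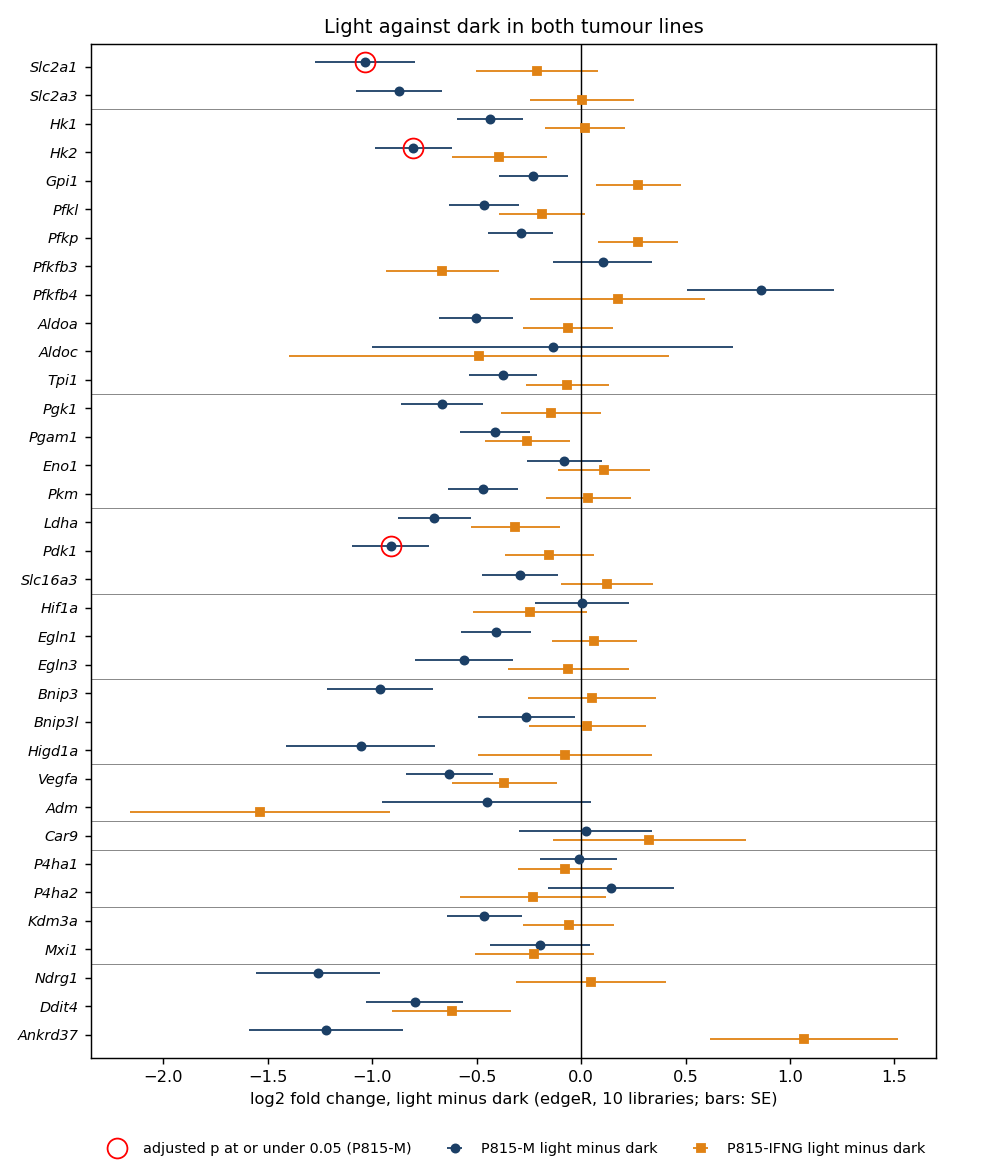
Log2 fold change (light minus dark) with its standard error for each gene in P815-M (circles) and P815-IFNG (squares), from the edgeR fit of the 10 shallow libraries. Rings mark Slc2a1, Hk2 and Pdk1, with an adjusted p of at most 0.05, and 30 of 35 circles lie left of 0 against 21 of 35 squares.

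Whether light acted differently in the 2 lines was then tested itself. No gene of the 35 was called, with 0.0% of all genes called over 12 libraries and 0.0118% over 10 in edgeR. After ComBat-seq, Ankrd37 was called (2.18, SE 0.45, edgeR adjusted p = 0.00999), and with depth class as a term it was not (2.14, SE 0.46, edgeR adjusted p = 0.202). The fitted difference (P815-IFNG minus P815-M) was above 0 for 30 of 35 genes over 12 libraries, at a median of 0.53, and for 27 over 10, at 0.40. The median and share above 0 over all genes are not given here, so these values are not read as particular to the members. The fitted differences were 2.29 (SE 0.58, edgeR adjusted p = 0.344, 10 libraries) for Ankrd37, 1.31 (SE 0.47, edgeR adjusted p = 0.567) for Ndrg1 and 1.02 (SE 0.40, edgeR adjusted p = 0.605) for Bnip3. Pfkfb3 had a difference of -0.77 (SE 0.36).

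The third question was how the lines differed under the same light. In light, no member was called, against 0.016% of all genes over 12 libraries and 0.23% over 10. There were 9 genes that were higher in every P815-IFNG than in every P815-M tumor, Slc2a3, Ndrg1, Pdk1, Pfkp, Vegfa, Pfkfb3, Aldoa, Pkm and Higd1a, and Car9 was lower in every one. Of all genes 9.23% were higher and 7.71% lower in that way, and of those with a mean of at least 10 CPM 12.7% and 9.72%. Pdk1 had 39.8 and 42.5 CPM in the shallow P815-IFNG light tumors and 134 in the deep one, all above the 21.02 to 25.4 CPM of P815-M. Its log2 fold change was 1.64 (SE 0.54, edgeR adjusted p = 0.629) with the deep library and 0.83 (SE 0.20, edgeR adjusted p = 0.115) without. The median of the 35 genes was 0.43 with the deep pair, against 0.15 for all genes, and 0.16 without it, against -0.00096.

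In the dark, no member was called over 12 libraries, against 0.0106% of all genes, and Pfkfb3 and Car9 were called over 10, against 2.19%. Pfkfb3 (chr2:11471433-11554077, minus strand), the inducible activator of phosphofructokinase, had 98.4 and 67.4 CPM in the shallow P815-IFNG dark tumors, 101 in the deep one and 41.8, 32.8 and 25.1 CPM in P815-M. It was higher in every P815-IFNG tumor, by a log2 fold change of 1.31 (SE 0.25, edgeR adjusted p = 0.0136) over 10 libraries and 1.42 (SE 0.34, edgeR adjusted p = 0.604) over 12. In light it was also higher in every P815-IFNG tumor, at 51.5 and 53.7 CPM and 95.9 in the deep one, against 28.3 to 45.2 CPM, with a log2 fold change of 0.54 (SE 0.26, edgeR adjusted p = 0.485, 10 libraries).

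Car9 (chr4:43506966-43513729, plus strand) went the other way. It had 4.03 and 5.03 CPM in the shallow P815-IFNG dark tumors and 2.34 in the deep one, against 15.6, 15.6 and 13.6 CPM in P815-M. It had 6.03, 5.37 and 2.15 CPM in the corresponding light tumors, against 9.10 to 20.1 CPM. P815-IFNG was below P815-M in every tumor under both conditions, with log2 fold changes of -1.71 (SE 0.40, edgeR adjusted p = 0.0316) in the dark and -1.41 (SE 0.40, edgeR adjusted p = 0.183) in light over 10 libraries. These rest on 11 to 15 counts per shallow P815-IFNG library and 19 to 45 in P815-M. The 10-library call of Car9 in the dark was lost without either shallow P815-IFNG dark library or any 1 of the P815-M dark libraries, and that of Pfkfb3 without P815-IFNG dark library 1 or P815-M dark library 3, where its log2 fold changes were 1.00 and 1.12. The 10-library fit without P815-IFNG dark library 2 keeps 1 library of that group, and the further members called in it are not read as a result. With depth class as a term in the fit of 12 libraries 4 members were called, Pfkfb3, Car9, Slc2a1 and Ankrd37, where 290 of all genes were called. Gm12454, the row opposite Car9, had 3.41 to 15.1 CPM in the shallow P815-IFNG libraries and 19.7 to 80.7 CPM in P815-M.

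**Figure D5:**
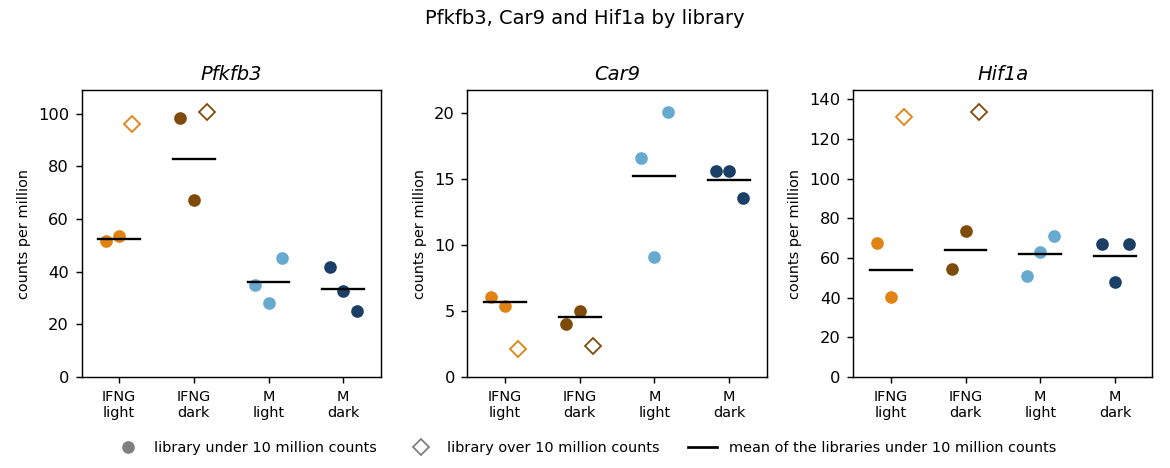
Level in CPM (counts per 1000000) of Pfkfb3, Car9 and Hif1a in each tumor, with symbols and lines as in the plot of 9 genes by library. All P815-IFNG tumors lie above all P815-M tumors of the same light condition for Pfkfb3 and below them for Car9, and the filled circles of Hif1a overlap in all 4 groups.

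In the dark, 7 genes were lower in every P815-IFNG than in every P815-M tumor (Hk2, Ddit4, Pfkp, Car9, Slc2a1, Egln1 and Gpi1), and Aldoc and Pfkfb3 were higher, against 10.3% and 10.9% of all genes. Among genes with a mean of at least 10 CPM 15.8% were lower, against 7 of 33 members, and 12.2% higher, against 1. The median of the 35 genes was -0.10 with the deep pair, against 0.33 for all genes, and -0.27 without it, against 0.05. The 9 macrophage and monocyte markers summed to 1725 and 1624 CPM in the shallow P815-IFNG dark tumors and 663 in the deep one, against 702 to 986 CPM in P815-M, with 2 of 9 called as higher in the 10-library edgeR fit. In the shallow P815-IFNG dark tumors, compared with P815-M, endothelial markers (116 and 146 CPM against 22.2 to 107.8), adipocyte markers (122 and 183 CPM against 0.823 to 26.1) and fibroblast markers (6086 and 12410 CPM against 4719 to 5492) were higher without overlap, and mast cell markers (2046 and 1956 CPM against 2211 to 2814) lower. In the deep dark library the endothelial and adipocyte sums, at 43.7 and 16.4 CPM, lay within the P815-M range, the fibroblast sum, at 4565 CPM, below it, and the mast cell sum above it. The part of these markers in the result was not tested. Aldoc had at most 5.19 CPM in any library and 0 counts in 1 of them, so that its fold changes were not read.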

How the data were processed

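RNA-seq counts of 12 tumors were analysed. The authors trimmed reads with fastp, aligned them with STAR 2.7.9a to mm10 extended by the inserted sequences, counted reads per gene with HTSeq 0.13.5 at default settings, and deposited the raw counts, 1 library each, without pooling. Their removal of mitochondrial genes and their batch correction are not in the deposited counts. A stranded kit counted at default settings can place reads on the opposite strand's gene. The mt-Nd6 share of the mitochondrial coding counts was 29.0% to 47.9% in the 10 shallow libraries, which include all P815-M libraries. It was 3.56% and 3.85% in the deep pair. Whether reads were placed on the wrong strand was not tested, and levels in the shallow libraries may not be those of each gene's own RNA.

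Library totals were 2211234 to 2946792 counts in 10 libraries and 41473500 and 42338096 in the other 2, so the 10 are the less precise. After leaving out 13 mitochondrial rows, genes of at least 10 counts in total were tested (18804; 16944 in the 10 libraries). Counts were scaled by TMM and fitted with edgeR 4.0.16 (quasi-likelihood test, 4 group means, R 4.3.3) over all genes, with Benjamini-Hochberg adjustment. A call needed an adjusted p of at most 0.05 and a log2 fold change of at least 1 in size. Exact permutation tests, 95% Wilson intervals and figures were made with Python 3.11.15 (scipy 1.17.1, matplotlib 3.10.9). DESeq2 1.42.0 and ComBat-seq (sva 3.50.0) were alternatives. The fit was tested on data simulated from a mean profile shared by all libraries. These data held no difference in profile between depth classes, so the test does not cover that difference. Groups came from the labels. No source used here says more of the replicates than 1 tumor per mouse.

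Tests were named for Vegfa, Slc2a1, Hk2, Ldha, Pgk1, Car9, Bnip3, Egln3 and Hif1a in the light comparisons and, in each of 5 comparisons, for up to 4 members with the smallest p under 0.05. Other members' values were added by role after they had been seen. Members and lists were chosen with earlier results of these data known.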

Additional observations from a re-analysis of the deposited data

Results flagged for a closer look

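Pfkp, the platelet form of phosphofructokinase, drew attention because light went with opposite directions in the lines. In P815-IFNG it had 592 and 672 CPM in the shallow light tumors and 828 CPM in the deep one, all above the 475, 564 and 549 CPM of the dark tumors. In P815-M it had 540, 530 and 447 CPM in light, all below the 566, 624 and 642 CPM in the dark. The light effect in P815-IFNG minus that in P815-M was 0.67 on the log2 scale (SE 0.49) over 12 libraries and 0.56 (SE 0.25) over 10. Neither passed the edgeR test of the difference itself, at an adjusted p of 1 and 0.642. Pfkp is among the genes that share exon bases with a counted gene on the other strand.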

How the results depend on the processing

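Of the results under alternative settings, 1001 kept their side of the threshold and direction. Of the others, 132 gained a call or rose in a count of calls, 14 went the other way, 36 moved and 79 changed sign. The cause was not tested. The settings that leave out the deep pair with a replicate block, with DESeq2 or with 1 further library were chosen after seeing the data. Low totals limit the low genes most, since 10 libraries hold at most 2946792 counts assigned to genes. Why these totals were low was not tested.

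In P815-M light against dark, 0 members were called with all 12 libraries and 1 without the deep pair, 2 with depth class as a term, 3 with ComBat-seq and 2 with DESeq2 without the deep pair. All genes called numbered 157, 194, 247 and 230 in these settings and 1 with DESeq2 on 12. In P815-IFNG light against dark, 1, 2, 150 and 8 genes were called, and 4 with DESeq2 on 12. Between lines in light, ComBat-seq called 1 member. All genes called there were 39, 82, 252 and 76, and 41 with DESeq2 on 12, and the members' median was 0.16, 0.21, 0.23 and 0.16, and 0.28 with DESeq2 or its size factors. Between lines in the dark, 2, 4, 3 and 3 members were called, and 1 with DESeq2 on 12. All genes called were 371, 290, 544 and 434, and 38 with DESeq2 on 12, 4 with its size factors and 4 with filterByExpr, and the median was -0.32 with depth class as a term, -0.31 with ComBat-seq and -0.30 with DESeq2 without the deep pair. For the difference between lines in the effect of light, ComBat-seq called 1 member (Ankrd37), and all genes called were 2, 3, 40 and 21, and 4 with DESeq2 on 12.

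Deviations from the group mean of same-numbered shallow libraries had correlations of -0.37 to 0.27 over 10634 genes. In each P815-IFNG group only 2 libraries entered, whose deviations mirror each other. These correlations therefore cannot show whether replicate numbers pair the samples. With a replicate block on 12 libraries 0 members were called in any of the 5 comparisons, the medians were 0.06, -0.42, 0.30, -0.15 and 0.46 in the order above, and 7 genes were called between lines in the dark. With the block and without the deep pair, 2 members were called in P815-M and 2 between lines in the dark, all genes called were 5, 252, 41, 445 and 14, and the median between lines in light was 0.17.

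In P815-IFNG light against dark, Vegfa changed sign to -0.37 without the deep pair, -0.35 with the block as well and -0.34 with DESeq2, Slc2a1 to -0.21, -0.18 and -0.18, and Egln3 to -0.061, -0.10 and -0.029. Pgk1 changed to 0.0022 with DESeq2 and 0.0019 with its size factors. In P815-M, Car9 changed to -0.00022 with ComBat-seq and -0.013 with the block without the deep pair, and Hif1a to -0.015 with ComBat-seq.

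With 1 library left out in turn, a group left with 1 library is assumed to vary like the others. From 12 libraries, 0 members were called in each comparison. From 10, 0 to 2 were called in P815-M, 0 to 5 between lines in the dark and 0 to 1 for the difference. All genes called ranged over 0 to 0 (12) and 0 to 9 (10) in P815-IFNG, 0 to 0 and 18 to 229 in P815-M, 1 to 4 and 17 to 46 between lines in light, 1 to 6 and 145 to 415 in the dark, and 0 to 0 and 0 to 3 for the difference. The members' median ranged over -0.27 to 0.20 and -0.36 to 0.22 in P815-IFNG, -0.52 to -0.36 and -0.55 to -0.38 in P815-M, 0.17 to 0.63 and 0.12 to 0.18 between lines in light, -0.27 to 0.11 and -0.52 to -0.12 in the dark (above 0 without P815-IFNG dark library 1), and 0.25 to 0.63 and 0.17 to 0.63 for the difference. In P815-IFNG light against dark, leaving 1 out gave -0.33 to 0.54 (12) and -0.70 to 0.11 (10) for Vegfa, -0.32 to 0.46 and -0.68 to 0.54 for Slc2a1, -0.37 to 0.058 and -0.69 to 0.023 for Hk2, -0.49 to 0.069 and -0.55 to 0.015 for Ldha, -0.21 to 0.23 and -0.42 to 0.24 for Pgk1, -0.13 to 0.67 and 0.18 to 0.51 for Car9, -1.08 to 1.79 and -0.38 to 0.71 for Bnip3, -0.54 to 0.57 and -0.78 to 0.43 for Egln3, and -0.63 to 0.25 and -0.68 to 0.08 for Hif1a. In P815-M it gave -0.22 to 0.30 and -0.24 to 0.29 for Car9 and -0.12 to 0.14 and -0.15 to 0.11 for Hif1a.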
